A study of Mus musculus with 6 samples.

Results

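The 10 genes described here encode G protein alpha subunits, out of 23997 genes measured by bulk RNA-Seq in the mouse ductus arteriosus (DA). They were selected by symbol: *Gnaq*, *Gna11*, *Gna14*, and *Gna15* of the Gq/11 class, *Gna12* and *Gna13* of the G12/13 class, *Gnas* of the Gs class, and *Gnai1*, *Gnai2*, and *Gnai3* of the Gi class. *Gna14* was picked because its values were low in one group of libraries, and the other 9 genes were added as its paralogs. The values that chose *Gna14* are therefore given as a description, with no test, whereas each paralog was tested on its own.

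A heterotrimeric G protein couples a receptor of the cell surface to enzymes inside the cell. The alpha subunit binds GTP when the receptor is activated, separates from the beta and gamma subunits, and decides which enzyme responds. In vascular smooth muscle, the Gq/11 class activates phospholipase C-beta and raises intracellular calcium, the G12/13 class acts on the actin cytoskeleton and contraction, Gs stimulates adenylyl cyclase and relaxes the muscle, and Gi inhibits adenylyl cyclase. The DA is the fetal artery between the pulmonary artery and the aorta. Its closure after birth depends on contraction of its smooth muscle, which is held relaxed before birth by prostaglandin acting through Gs-coupled receptors.

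The DA was taken from C57BL/6 mouse embryos at E17.5. There were 3 libraries of wild type littermates (WT0, WT1, and WT2) and 3 libraries of embryos with the genotype Prdm6f/f; SM22-Cre (KO0, KO1, and KO2). *SM22-Cre* expresses Cre-recombinase in smooth muscle cells, where it is used to remove the floxed alleles of *Prdm6*, so that other cell types of the vessel are not its intended target. No allele beyond wild type was given for the WT libraries, and no treatment was given to either group. The study set a minimum number of mice per group for its in vivo work, but neither its methods nor the labels tie each library to 1 embryo, so p values measure the spread between these libraries, which may in part be technical.

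The authors deposited FPKM values (read fragments relative to transcript length and library size), which hold no counts, so the total depth is unknown. Judged from the steps between low values, relative depth ranged from 0.927 to 1.19 with WT1 set to 1. WT2 stood apart, with 11886 genes listed at 0 against 8338 to 10313 in the other libraries. KO0 held both *Xist* (81.0 FPKM), of the inactive X chromosome, and the Y-linked *Ddx3y* (26.4 FPKM), each near its level in libraries that held only that transcript. *Prdm6* was at 41.7, 48.4, and 19.8 FPKM in WT and at 48.6, 27.1, and 15.4 FPKM in KO, so its gene-level value did not separate the groups. Which exons are floxed was not stated in the sources used here, and a value over the whole gene does not check a deletion of part of it, so each direction below rests on the labels. Values without WT2 or KO0 are given for the members where they change a direction or move a difference strongly, and for some other genes. *Rn45s*, the ribosomal RNA precursor, was listed at 0 in the 3 WT libraries and at 3060, 3806, and 4520 FPKM in KO0, KO1, and KO2, a split that follows the groups and whose part in the results below was not tested. The 10 smooth muscle markers, among them *Acta2*, *Tagln*, and *Myh11*, were detected in all 6 libraries.

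*Gna14* encodes a Gq/11-class subunit with a more restricted expression than *Gnaq* and *Gna11*. Its FPKM was 29.6, 15.0, and 8.37 in WT0, WT1, and WT2 and 1.51, 1.23, and 0.593 in KO0, KO1, and KO2. All 3 KO libraries lay below all 3 WT libraries, and the lowest WT value was 5.53 times the highest KO value. The mean was 17.7 ± 10.9 FPKM (SD, n = 3) in WT and 1.11 ± 0.471 FPKM (SD, n = 3) in KO, a ratio of 15.9. As the difference of log2(FPKM + 0.1), KO minus WT, this was -3.77, and leaving out each library in turn gave -4.21 (without WT2) to -3.31 (without WT0). Without KO0 the difference was -4.02. Groups that did not overlap, with KO lower, were found for 7.84% of the 12955 genes tested, which are those whose FPKM averaged 1 or more, and since *Gna14* was chosen by this contrast, nothing is read from its place among them.

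**Figure D1:**
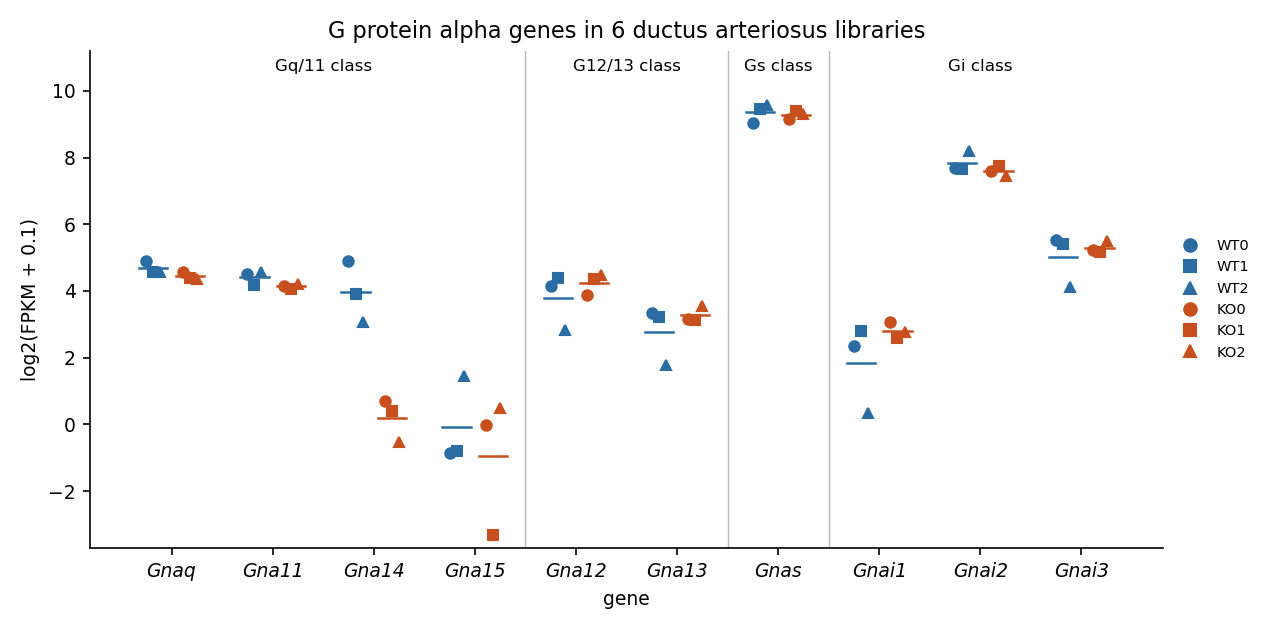
Each point is 1 library, plotted as log2(FPKM + 0.1) for the 10 genes grouped by class, with blue for WT, orange for KO, the shape for the library number, and a line for the group mean. The KO points of *Gna14* lie between 0.593 and 1.51 FPKM, below every WT point, whereas the groups overlap for the other 9 genes, and WT2 (blue triangle) is the lowest point for *Gna12*, *Gna13*, *Gnai1*, and *Gnai3*.

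Of the 9122 genes whose FPKM averaged 5 or more, 18 had a lower log2 difference than *Gna14*. All but *Clca2* were listed at 0 or very near it in at least 1 library. *Clca2* was at 324, 166, and 122 FPKM in WT and at 44.8, 4.12, and 11.9 FPKM in KO. *Clca2* was named after its values were seen. Since *Gna14* was chosen by this contrast, nothing is read from its rank among these genes. *Gna14* itself was listed above 0 in all 6 libraries.

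*Gna14* occupies 16435762 to 16610820 of chromosome 19 on the plus strand (GRCm38, equal to mm10). *Gnaq*, which encodes the ubiquitous subunit of the class, precedes it on the same strand from 16132831 to 16387463, with 48.3 kb between the genes. *Gna15* and *Gna11* form a like pair on chromosome 10, on the minus strand from 81502306 to 81524225 and from 81528724 to 81545190, with 4.50 kb between them. The coding sequence of *Gna14* was 74.6% identical to that of *Gnaq*, 74.0% to that of *Gna11*, and 58.1% to that of *Gna15*. The longest run of bases that any annotated transcript of *Gna14* shared exactly with another of the 10 genes was 32 (with *Gnaq*), which is shorter than the shortest read that the authors kept. The longest such run between any pair of the 10 genes was 38 bases, between *Gnaq* and *Gna11*.

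The promoter windows of the neighbours *Gna14* and *Gnaq* are shown because these adjacent paralogs differ in the size of their difference between KO and WT. The windows hold 250 bases before and 50 after the RefSeq gene start (GRCm38.p6, plus strand, 5′ to 3′), with each CG dinucleotide in capitals. That of *Gna14* is chr19:16435417-16435716 and that of *Gnaq* is chr19:16132434-16132733.
Gna14: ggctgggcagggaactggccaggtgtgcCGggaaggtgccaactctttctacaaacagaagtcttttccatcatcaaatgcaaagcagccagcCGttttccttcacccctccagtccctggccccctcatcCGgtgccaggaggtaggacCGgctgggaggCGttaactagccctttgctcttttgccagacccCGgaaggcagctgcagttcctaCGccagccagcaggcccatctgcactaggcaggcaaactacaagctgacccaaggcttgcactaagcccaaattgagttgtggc
Gnaq: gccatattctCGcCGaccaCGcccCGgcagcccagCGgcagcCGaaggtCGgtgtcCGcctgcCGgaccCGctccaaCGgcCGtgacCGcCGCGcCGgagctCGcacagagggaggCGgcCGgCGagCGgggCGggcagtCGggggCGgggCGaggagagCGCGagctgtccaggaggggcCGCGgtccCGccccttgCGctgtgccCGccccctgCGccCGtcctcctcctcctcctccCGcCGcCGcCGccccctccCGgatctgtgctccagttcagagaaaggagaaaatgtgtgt
The window of *Gna14* holds 7 CG dinucleotides, the median of 32851 promoter windows of this length, and that of *Gnaq* holds 39, a number reached by 4.45% of the windows. In the other pair the same contrast was present, with 6 CG dinucleotides for *Gna15* and 48 for *Gna11*. The GC box (GGGCGG on either strand) occurred 5 times in the window of *Gnaq*, 2 times in that of *Gna11*, and was not found in those of *Gna14* and *Gna15*, whereas 35.7% of all windows hold it. The CArG box, the binding motif of serum response factor, was in 1.63% of all windows and in none of the windows of the members. *Gnai2* had no window in the table used. These matches describe the letters of the windows and no binding was measured.

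Within the Gq/11 class, the share of *Gna14* in the summed FPKM of the 4 genes does not depend on the scaling between libraries. It was 35.9%, 26.2%, and 14.4% in WT0, WT1, and WT2 and 3.47%, 3.19%, and 1.45% in KO0, KO1, and KO2. In WT0 *Gna14* was nearly as abundant as *Gnaq* (0.994 times its FPKM), and in the KO libraries it was at 0.0290 to 0.0640 times the FPKM of *Gnaq*. The summed FPKM of the class was 82.4, 57.2, and 58.2 in WT and 43.7, 38.6, and 40.8 in KO. *Gnaq* and *Gna11* together were at 47.1 ± 5.34 FPKM (SD, n = 3) in WT and 39.2 ± 1.97 FPKM (SD, n = 3) in KO. The mean sum was 24.9 FPKM lower in KO, and that of *Gnaq* and *Gna11* was 7.94 FPKM lower.

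**Figure D2:**
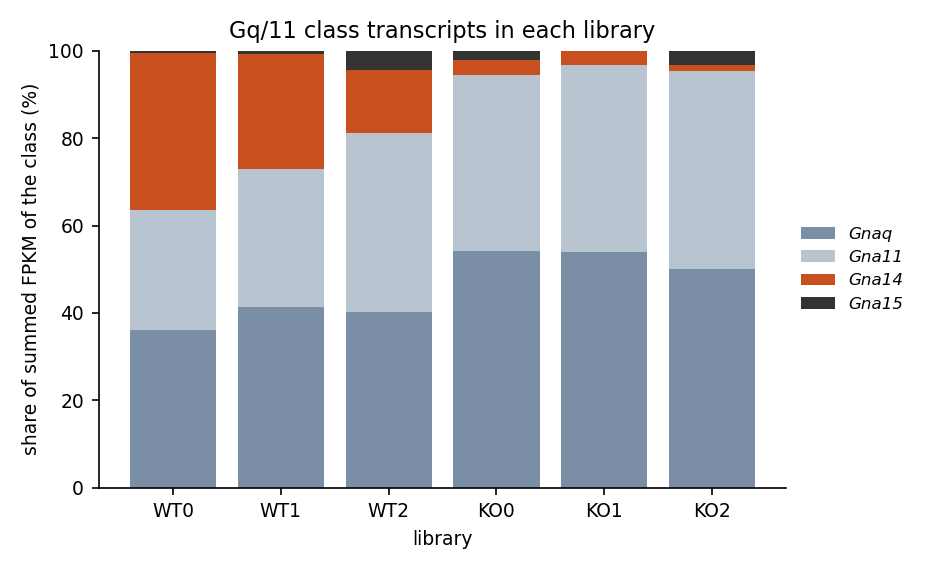
Stacked bars give the share of each of the 4 Gq/11-class genes in their summed FPKM, in percent, for each library. The share of *Gna14* (orange) is 14.4% to 35.9% in the WT libraries and 1.45% to 3.47% in the KO libraries.

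Transcripts of smooth muscle moved in the same direction. The summed FPKM of the 10 smooth muscle markers was 5799, 2904, and 2522 in WT0, WT1, and WT2 and 2415, 1812, and 925 in KO0, KO1, and KO2, without overlap, and 10 of 10 markers had a lower mean in KO. The library order of *Gna14* and of this sum was the same over the 3 WT and over the 3 KO libraries. In bulk tissue, fewer smooth muscle cells and less RNA per cell cannot be told apart. The mean sum was 2.18 times higher in WT. *Acta2* and *Tagln* took the largest part of it, and some single markers differed by more, such as *Cnn1*, which encodes calponin, at 276, 107, and 139 FPKM in WT and 64.1, 49.9, and 19.2 FPKM in KO. *Acta2* itself overlapped between the groups, at 2262, 1121, and 855 FPKM in WT and 1161, 809, and 396 FPKM in KO. *Smtn*, *Myocd*, and *Des* overlapped as well. Per 1000 FPKM of the markers, *Gna14* was at 5.10, 5.17, and 3.32 FPKM in WT and at 0.627, 0.678, and 0.641 FPKM in KO. These ratios did not overlap and had means of 4.53 ± 1.05 (SD, n = 3) and 0.649 ± 0.0266 (SD, n = 3), so that the WT mean was 6.98 times the KO mean. This ratio uses the values that chose *Gna14* and is a description, with no test. The marker sum it is divided by was itself lower in KO. The same ratio was higher in KO without overlap for *Gnaq* (means 7.52 in WT and 14.5 in KO), *Gna13*, *Gnai1*, and *Gnai3*. For *Gna11*, *Gna12*, *Gna15*, *Gnas*, and *Gnai2* it overlapped between the groups. Division by the lower marker sum of KO raises this ratio in KO for any gene, and in FPKM alone all of these paralogs overlapped. The share of all tested genes that the ratio separates was not computed, so nothing is read from it about the paralogs.

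**Figure D3:**
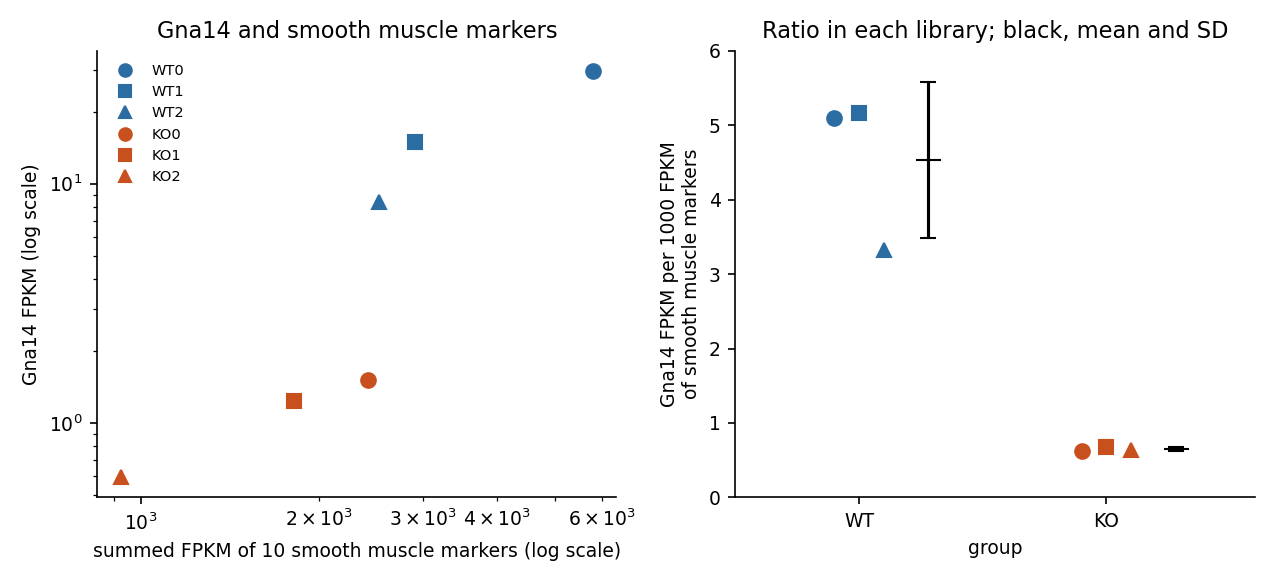
Left, *Gna14* FPKM against the summed FPKM of 10 smooth muscle markers in each library, both on log axes. Right, *Gna14* FPKM per 1000 FPKM of these markers, with the mean and SD (n = 3) of each group in black; the WT libraries lie between 3.32 and 5.17 and the KO libraries between 0.627 and 0.678.

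Markers of other cell types also differed between the groups. The summed FPKM of 8 Schwann cell markers was 14.6 to 37.9 in WT and 46.3 to 118 in KO, with 7 of 8 higher by mean in KO and 4 (*Foxd3*, *S100b*, *Fabp7*, and *Gfra3*) listed at 0 in some library. That of 10 neuron markers was 34.6 to 51.1 in WT and 81.2 to 95.8 in KO, with 10 of 10 higher by mean in KO and 7 listed at 0 in some library. *Uchl1* and *Stmn2* took the largest part of the neuron sum. *Uchl1* overlapped between the groups, at 35.1, 25.4, and 23.9 FPKM in WT and 40.6, 30.7, and 27.4 FPKM in KO. The sums for endothelium, fibroblast, heart muscle, erythroid, leukocyte, and epithelial markers overlapped between the groups, but some were uneven across libraries. The heart muscle sum was 67.5, 1609, and 581 FPKM in WT and 202, 159, and 1842 FPKM in KO. That of the erythroid markers was 3865, 7584, and 4351 FPKM in WT and 12645, 24362, and 4287 FPKM in KO. The library order of the Schwann cell sum was the reverse of that of *Gna14* in both groups. Over the 6 libraries, which share their grouping, Pearson's r with *Gna14* was 0.89 for the smooth muscle sum, -0.96 for the Schwann cell sum, and -0.91 for the neuron sum. The part of these cell types in the values of *Gna14* was not tested.

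The genes whose pattern over the 6 libraries was most like that of *Gna14* were *Nxn*, *Map1b*, *Mical2*, *Egr1*, and *Adamts2*, with Pearson's r of log2(FPKM + 0.1) from 0.986 to 0.996 over 9121 genes compared. These libraries share their grouping, so r mostly reflects the difference between the groups and is given without a test. The differences of these genes were smaller than that of *Gna14*, with WT means 1.58 to 2.19 times the KO means. *Mical2*, which encodes an actin-oxidizing enzyme, was at 118, 101, and 85.2 FPKM in WT and at 71.1, 62.1, and 56.7 FPKM in KO. Among the paralogs, r with *Gna14* was 0.84 for *Gnaq* and 0.65 for *Gna11* and between -0.34 and 0.38 for the other 7.

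The other protein-coding genes of the table within 500 kb of *Gna14* overlapped between the groups or were not detected. *Vps13a*, on the opposite strand with its 3′ end 4.55 kb downstream, was at 5.01, 4.70, and 2.35 FPKM in WT and at 3.76, 3.05, and 7.10 FPKM in KO. *Psat1*, *Cep78*, and *Prune2* also overlapped, *Gnaq* did so through KO0 alone, and *Foxb2* was listed at 0 in all libraries.

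*Gnaq* was at 29.8, 23.6, and 23.4 FPKM in WT and at 23.6, 20.8, and 20.4 FPKM in KO, and KO0 lay just above WT1 and WT2. Its log2 difference was -0.24 (standard error 0.20, adjusted p = 0.728 from limma over all genes tested), with a 95% interval from -0.70 to 0.22. *Gna11*, its close paralog, was at 22.6, 18.1, and 23.8 FPKM in WT and at 17.6, 16.5, and 18.5 FPKM in KO, with a log2 difference of -0.28 (standard error 0.21, adjusted p = 0.702 from limma) and a 95% interval from -0.77 to 0.20. Neither gene passed the test. The intervals leave room for a fall to 0.617 and 0.587 times the WT level, respectively. *Gna15*, which is best known from blood cells, was at 0.453, 0.480, and 2.62 FPKM in WT and at 0.887, 0, and 1.32 FPKM in KO, had a mean below the minimum for the test, and overlapped widely between the groups. The leukocyte marker sum, set beside it, was 29.0, 111, and 224 FPKM in WT and 49.7, 245, and 194 FPKM in KO. *Lyz2* took the largest part of this sum, with 174 FPKM in KO1. *Ptprc*, *Csf1r*, *Lyz2*, and *Aif1* were highest in KO1, where *Gna15* was listed at 0, and *Tyrobp* in KO0. *Cd68*, *C1qa*, *C1qb*, *Cx3cr1*, and *Fcer1g* were highest in WT2, where *Gna15* was also highest. The part of leukocytes in the values of *Gna15* was not tested.

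*Gna12* and *Gna13* encode the subunits that act on guanine nucleotide exchange factors of small GTPases. *Gna12* was at 17.7, 20.7, and 6.95 FPKM in WT and at 14.7, 20.3, and 22.2 FPKM in KO. *Gna13* was at 10.1, 9.19, and 3.33 FPKM in WT and at 8.88, 8.66, and 11.6 FPKM in KO. Both were low in WT2 and similar in the other 5 libraries. The log2 differences were 0.45 (standard error 0.43, adjusted p = 0.747) and 0.50 (standard error 0.47, adjusted p = 0.745 from limma), and without WT2 they were -0.03 and 0.00076.

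*Gnas*, which encodes the stimulatory subunit, had the highest FPKM of the 10 genes. It was at 524, 696, and 768 FPKM in WT and at 575, 668, and 630 FPKM in KO, and the KO values all lay within the WT range. The log2 difference was -0.07 (standard error 0.21, adjusted p = 0.924 from limma), with a 95% interval from -0.56 to 0.42, and it turned to 0.05 without WT2 and to 0.08 with quantile normalization. The *Gnas* locus (chromosome 2 from 174284320 to 174346744) is imprinted and has several promoters, and its 24 annotated transcripts share 1 value here. It overlaps the antisense gene *Nespas*, and the strand of the reads was not stated in the sources used here, so that reads of the overlap cannot be told apart.

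*Gnai2* was the most abundant of the inhibitory subunits, at 206, 200.0, and 294 FPKM in WT and at 195, 216, and 175 FPKM in KO. Its log2 difference was -0.24 (standard error 0.20, adjusted p = 0.728 from limma), and -0.06 without WT2. *Gnai3* was at 45.9, 42.4, and 17.1 FPKM in WT and at 37.2, 35.9, and 45.3 FPKM in KO, with a log2 difference of 0.29 (standard error 0.37, adjusted p = 0.810 from limma) that turned to -0.17 without WT2. *Gnai1* was at 4.97, 6.86, and 1.17 FPKM in WT and at 8.26, 5.90, and 6.73 FPKM in KO. Its log2 difference of 0.98 (standard error 0.66, adjusted p = 0.689 from limma) was the largest among the paralogs and fell to 0.24 without WT2. All 3 inhibitory genes overlapped between the groups, and each moved toward 0 or past it when WT2 was left out.

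Of the 8 paralogs tested, 4 were higher and 4 lower in KO, 0 had an adjusted p under 0.05, 0 had an unadjusted p under 0.05, and 0 were without overlap between the groups. In the same limma fit, 1 of 12955 genes (0.00772%, *Rn45s*) had an adjusted p under 0.05, 8.28% had an unadjusted p under 0.05, and 16.1% did not overlap in either direction (7.84% lower and 8.21% higher). A difference below 0 was found for 44.4% of all tested genes. The paralogs' median log2 difference was 0.11, and that of all genes tested was 0.072. With 3 libraries against 3, a two-sided exact permutation test cannot give a p under 0.1. WT2 held the lowest value of the 6 libraries for 4 of the 10 genes and the highest for another 4, where 30.8% and 25.6% of all tested genes had their lowest and highest value in that library.

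**Figure D4:**
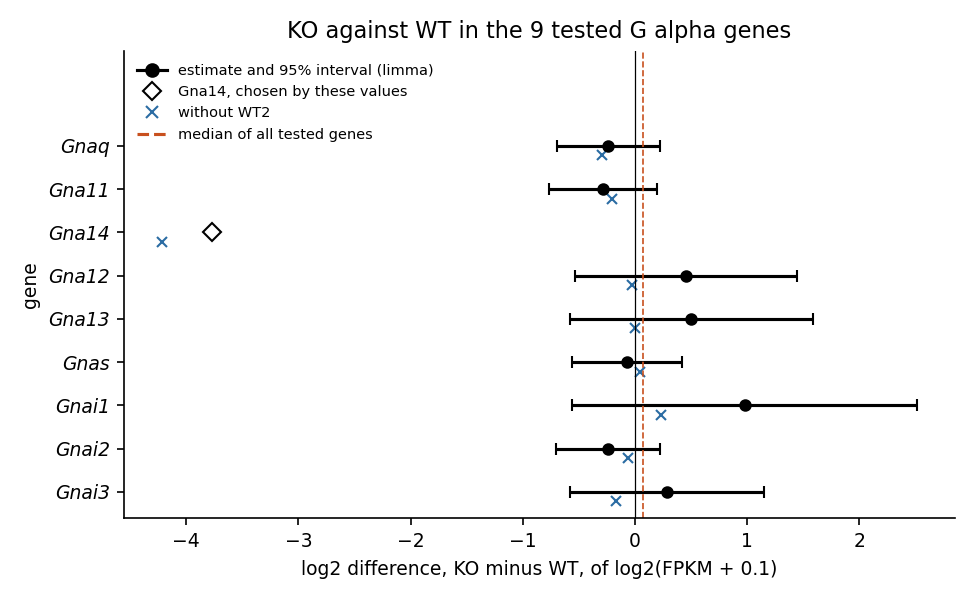
Log2 difference, KO minus WT, of log2(FPKM + 0.1) for the 9 tested genes, with 95% intervals from limma for the 8 paralogs and no interval for *Gna14*, which these values chose. Crosses give the difference without WT2 and the dashed line the median of all tested genes (0.072); *Gna14* lies at -3.77 and the paralogs between -0.28 and 0.98.

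FPKM is scaled for transcript length, so levels can be set side by side across genes. By mean FPKM over the 6 libraries the order was *Gnas* (643), *Gnai2* (214), *Gnai3* (37.3), *Gnaq* (23.6), *Gna11* (19.5), *Gna12* (17.1), *Gna14* (9.38), *Gna13* (8.63), *Gnai1* (5.65), and *Gna15* (0.959). *Gnas* lay above *Gnai2*, and *Gnai2* above *Gnai3*, in 6 of 6 libraries without overlap of their ranges (two-sided exact sign-flip permutation test, p = 0.03125, the smallest that 6 libraries allow, adjusted p = 0.0729 over 7 pairs of neighbours without *Gna14*). *Gna11* and *Gna12* did not differ beyond their spread, with *Gna11* higher in 3 of 6 libraries (exact permutation p = 0.594). The other neighbours, *Gna14* aside, held their order in 5 or 6 libraries with overlapping ranges. *Gna12* was above *Gna14* in 4 of 6 libraries and below it in WT0 and WT2. The place of *Gna14* depended on the group: it was above *Gna13* in WT0 and the other 2 WT libraries and below it in the 3 KO libraries.

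The remaining genes of the family were low. *Gnao1*, the main G protein alpha gene of neurons, was at 4.60, 5.59, and 3.35 FPKM in WT and at 3.97, 6.64, and 7.15 FPKM in KO. *Gnaz* was at 1.24, 1.62, and 5.01 FPKM in WT and at 2.41, 4.15, and 2.86 FPKM in KO. Neither passed the test (adjusted p = 0.792 and 0.832 from limma). *Gnal*, of olfactory neurons, was between 0.354 and 1.87 FPKM, and of the transducin and gustducin genes, *Gnat1* and *Gnat3* were listed at 0 in all 6 libraries and *Gnat2* in 4.

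The pathway beyond the 10 members was described from lists of 116 genes, the 6 alpha genes just given included, of which 86 were tested. Of these, 53 were higher and 33 lower in KO, 0 had an adjusted p under 0.05, and 8 had an unadjusted p under 0.05 (4 lower and 4 higher), where the shares over all tested genes were 4.97% lower and 3.31% higher. The count of 8 became 2 without KO1, 3 without WT0, 4 without KO0 or KO2, and 4 with the replicate number as a block. The groups did not overlap for 12 of the 86, with 9 lower and 3 higher in KO, beside 16.1% of all tested genes (7.84% lower and 8.21% higher).

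The beta and gamma subunits form the partner of every alpha subunit. All 4 tested beta genes were slightly lower, with a median log2 difference of -0.21, 0 without overlap, and *Gnb1*, the most abundant, at 138, 112, and 132 FPKM in WT and 106, 126, and 105 FPKM in KO (log2 difference -0.18, adjusted p = 0.741 from limma). Of the 7 tested gamma genes, 4 were higher and 3 lower by estimate and 0 had an unadjusted p under 0.05. The groups did not overlap for 1 of them (*Gng8*, lower in KO), beside 7.84% of all tested genes. *Gng11*, the most abundant of them, was at 27.6, 15.7, and 33.8 FPKM in WT and 36.4, 44.5, and 20.8 FPKM in KO.

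Regulators of the alpha subunits went in both directions. By estimate, 3 of the 5 chaperone and GoLoco genes and 5 of the 7 receptor kinases and arrestins were higher in KO. *Gpsm2*, a GoLoco protein that binds inactive Gi subunits, was at 21.7, 17.9, and 19.6 FPKM in WT and 12.1, 14.2, and 17.7 FPKM in KO, which did not overlap (log2 difference -0.44, standard error 0.23, adjusted p = 0.643 from limma). In its list, 2 of 5 genes (*Gpsm1* and *Gpsm2*) were lower in KO without overlap, beside 7.84% of all tested genes. The median of the 5 chaperone and GoLoco genes was 0.62, and that of the 7 receptor kinases and arrestins was 0.24. *Grk6*, a receptor kinase, was at 22.7, 22.9, and 23.9 FPKM in WT and 19.1, 20.4, and 17.0 FPKM in KO, without overlap (log2 difference -0.30, adjusted p = 0.681 from limma).

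Effectors of the Gq/11 class, which include the phospholipase C-beta genes and the receptors of inositol trisphosphate, had a median log2 difference of 0.22 over 13 tested genes, with 0 at an unadjusted p under 0.05. The groups did not overlap for 1 of the 13 (*Trio*, lower in KO), beside 7.84% of all tested genes. *Arhgef25*, a guanine nucleotide exchange factor that Gq activates, was at 62.4, 67.5, and 123 FPKM in WT and 63.6, 59.7, and 41.9 FPKM in KO, which overlapped (log2 difference -0.57, adjusted p = 0.641 from limma), and its difference was -0.26 without WT2. Effectors of the G12/13 class had a median of -0.13 over 6 genes. *Rhoa* was at 236, 231, and 321 FPKM in WT and 202, 232, and 211 FPKM in KO. Among 15 adenylyl cyclase and protein kinase A genes, with a median of 0.13, *Prkacb*, which encodes a catalytic subunit of the kinase, was at 41.9, 40.3, and 37.1 FPKM in WT and 31.8, 29.9, and 26.0 FPKM in KO. These groups did not overlap, and the log2 difference of -0.45 (standard error 0.17) had an unadjusted p of 0.0338 and an adjusted p of 0.588 from limma.

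The receptors showed the widest range. *Ptger4*, the Gs-coupled prostaglandin E2 receptor that keeps the fetal DA relaxed, was at 32.4, 22.8, and 21.8 FPKM in WT and 5.10, 5.51, and 7.61 FPKM in KO. Its log2 difference of -2.06 (standard error 0.29) had an unadjusted p of 0.00012 and an adjusted p of 0.172 from limma, and it stayed between -2.23 and -1.88 with each library left out. *Vipr1*, a Gs-coupled receptor of vasoactive intestinal peptide, was at 8.15, 3.71, and 2.97 FPKM in WT and 1.77, 2.07, and 0.708 FPKM in KO (log2 difference -1.62, adjusted p = 0.600 from limma). Neither passed the adjusted threshold, although both groups of values were without overlap. The other 6 tested Gs-coupled receptors were higher by estimate, with a median of 0.59 for all 8.

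Of 11 tested Gq/11-coupled receptors, 9 were higher and 2 lower by estimate, with a median of 0.53. *Tbxa2r*, the thromboxane A2 receptor, was at 9.39, 4.71, and 3.55 FPKM in WT and 0.372, 0.565, and 2.66 FPKM in KO (log2 difference -2.53, standard error 0.85, adjusted p = 0.545 from limma, and -2.02 without KO0). *Agtr1b*, an angiotensin II receptor, was at 0.822, 0.553, and 0 FPKM in WT and 5.17, 1.96, and 2.39 FPKM in KO (log2 difference 2.94, adjusted p = 0.591 from limma). Without WT2, where it was listed at 0, the difference of *Agtr1b* was 1.95, and it depends on the pseudocount. Both pairs of groups were without overlap, in opposite directions. *Ednrb*, named here after its values were seen, was at 9.02, 16.5, and 21.2 FPKM in WT and 18.2, 54.9, and 85.4 FPKM in KO (log2 difference 1.58, adjusted p = 0.567 from limma). Its groups overlapped, with KO0 below WT2. *Ednrb* is also a gene of neural crest and glia. The Schwann cell marker sum was highest in KO1 and KO2, as was the endothelium marker sum. The part of these cell types in the values of *Ednrb* was not tested.

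Among 8 tested Gi-coupled receptors, with a median of 0.21, *S1pr1*, the sphingosine-1-phosphate receptor of endothelium, was at 17.3, 18.7, and 15.8 FPKM in WT and 27.6, 22.2, and 27.6 FPKM in KO (log2 difference 0.57, adjusted p = 0.561 from limma). *Ptger3*, another prostaglandin E2 receptor, was listed at 0 in WT0 and WT2, at 5.20 FPKM in WT1, and at 6.67, 6.96, and 9.07 FPKM in KO (log2 difference 4.34, standard error 1.55, adjusted p = 0.564 from limma, and 3.38 without WT2). Its estimate depends on the pseudocount, since an exact 0 can be a failed estimate: between 34 and 61 of the 3506 genes that averaged 20 FPKM or more were listed at 0 in any library. None of the 86 genes passed the adjusted threshold in limma.

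**Figure D5:**
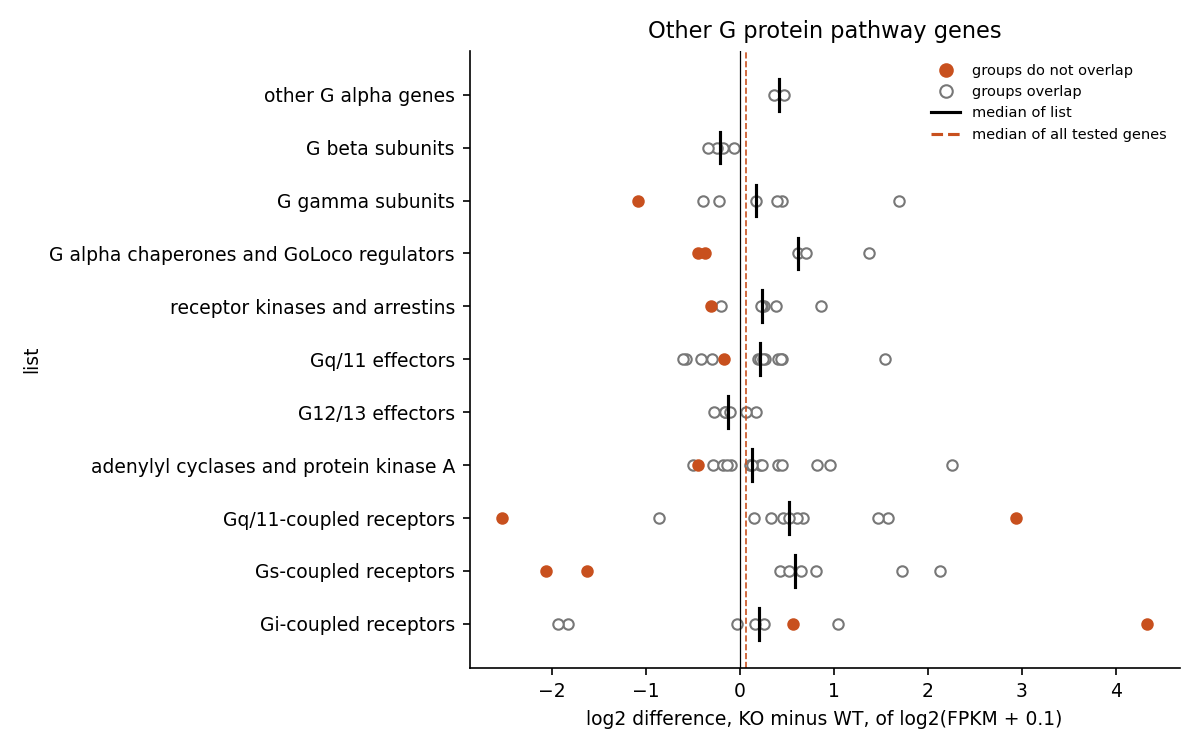
Log2 difference, KO minus WT, of log2(FPKM + 0.1) for the tested genes of each pathway list, 1 point per gene, filled where the 3 KO and 3 WT libraries do not overlap, with the list median in black and the median of all tested genes (0.072) dashed. *Tbxa2r*, *Ptger4*, and *Vipr1* are the filled points below -1.6, and *Agtr1b* and *Ptger3* those above 2.9.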

How the data were processed

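Bulk RNA-Seq of the DA gave 6 libraries, grouped as WT or KO by the sample titles, and 0 columns of the table were left unmatched. The authors trimmed the reads, aligned them to mm10 with TopHat2, and deposited FPKM values from Cufflinks and Cuffdiff, 1 per gene and library. Versions, the annotation, the strand of the libraries, and any scaling between libraries were not given in the sources used here. No counts can be had from the FPKM values, so the total depth is unknown, and an exact 0 can be a failed estimate.

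Groups were compared on log2(FPKM + 0.1) over the 12955 genes whose FPKM averaged 1 or more, by limma 3.58.1 in R 4.3.3 (two-sided eBayes, trend on the mean, Benjamini-Hochberg adjustment, threshold 0.05). This scale understates the change of low genes. Cuffdiff, used by the authors, needs the aligned reads. The fit was tested on simulated data. Neighbours in level were compared with exact sign-flip tests. Positions and transcripts came from GENCODE vM21 on GRCm38, with coding identity from global alignment in Biopython 1.88, and promoter windows from RefSeq (every member but *Gnai2* matched). No protein sequence was used here.

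The members and lists were chosen with earlier results of these data known. The named genes are the 10 members, the rest of the alpha family, in each list up to 4 genes with an unadjusted p under 0.05 and no overlap or else the most abundant, and the 5 genes most like *Gna14*. Alternatives covered the pseudocount, filter, scaling, variance model, replicate block, and the omission of libraries. A further Schwann cell marker of the list is not reported here, and the sum of that list leaves it out.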

Additional observations from a re-analysis of the deposited data

How the results depend on the processing

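Over 16 alternatives, *Gnaq*, *Gna11*, and *Gnai2* stayed lower and *Gnai1* and *Gna13* higher in KO, and none of the 8 tested paralogs had an adjusted p under 0.05. The filter, variance model, and replicate block leave a log2 difference as it is, so they could not change a direction. For *Gna13* the difference was only 0.00076 without WT2. Without WT2, *Gna12* turned to -0.0287, *Gnai3* to -0.166, and *Gnas* to 0.0454, and *Gnas* turned to 0.0800 with quantile normalization. The cause was not tested. Omitting 1 library at a time, the log2 difference ranged from -0.0287 to 0.751 for *Gna12*, from -0.166 to 0.542 for *Gnai3*, and from -0.231 to 0.0454 for *Gnas*. The log2 difference of *Gna14* was between -4.21 and -3.00 except with quantile normalization (-4.87), and its class share, KO minus WT, was between -28.4 and -17.6 percentage points with libraries left out.

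The count of 1 gene with an adjusted p under 0.05 became 2 without the trend, 2 without moderation, 3 without the 2 libraries highest in heart muscle markers (KO2 and WT1, chosen after seeing the data), and 1 to 3 with a library left out (3 without WT1, KO0, or KO2). The count of 8 pathway genes with an unadjusted p under 0.05 became 4 with a mean FPKM of at least 5, where 57 were tested, 4 with the replicate block, 5 without the 2 heart muscle libraries, and 2 to 10 with a library left out (3 without WT0, 10 without WT2, 4 without KO0 or KO2, and 2 without KO1). The replicate numbers did not pair the libraries: deviations of same-numbered libraries correlated at 0.12, -0.08, and -0.0088. With the block the count of genes with an adjusted p under 0.05 stayed 1.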
